A study of Mus musculus with 12 samples.

Results

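The nuclear genes for the subunits of the oxidative phosphorylation complexes were followed in the livers of NCoR mutant and control mice, euthyroid and hypothyroid. A gene was taken as a member by its platform symbol alone, when it began with Ndufa, Ndufb, Ndufc, Ndufs or Ndufv and a digit, was Sdha, Sdhb, Sdhc or Sdhd, or began with Uqcr, with Cox and a digit from 4 to 8, or with Atp5. These symbols found 81 of the 19938 genes that had a transcript cluster of their own on the array, where a transcript cluster is the set of probes that measures 1 transcript. The 81 genes had 105 clusters, and each gene was described by its cluster with the highest mean over the 12 arrays. They comprised 35 genes of complex I, 4 of complex II, 8 of complex III, 17 of complex IV and 17 of complex V. The symbols place Ndufa4 and its paralogue Ndufa4l2 with complex I, although the Ndufa4 protein is now counted with complex IV, and they place Cox7a2l, a factor of respiratory supercomplexes, with complex IV.

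Oxidative phosphorylation takes place in the inner mitochondrial membrane. Complexes I and II pass electrons from NADH and succinate to ubiquinone, complex III passes them on to cytochrome c, complex IV reduces oxygen, and complex V, the ATP synthase, uses the proton gradient built by complexes I, III and IV to make ATP. Most subunits are encoded in the nucleus, thyroid hormone is a long-known stimulator of mitochondrial respiration in the liver, and NCoR is a corepressor that thyroid hormone receptors and other nuclear receptors recruit to repress their target genes.

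The groups were euthyroid controls (replicates 13, 14 and 15), hypothyroid controls (replicates 17, 18 and 20), euthyroid mutants (replicates 2, 3 and 4) and hypothyroid mutants (replicates 5, 6 and 7), all assigned by the sample titles. Mutant mice carry the allele written L-NCoR∆ID in the design text, and the series title calls such livers NCoR deficient. The study asked what part NCoR takes in raising and lowering gene expression. The sources used here do not give age, sex, the Cre driver or how hypothyroidism was produced. The clusters with a single symbol include none for Ncor1, and its level was not analysed here. The labels do not say in words that each array is a separate animal, so the p-values measure the spread between these samples. Values are log2 signals after RMA (robust multi-array averaging), and values of a group are listed below in the order of the replicate numbers just given.

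The array medians lay between 4.16 and 4.32, and the standard deviation (SD) of log2 values over all clusters lay between 2.22 and 2.35. In controls this array SD was 2.22 to 2.28 when euthyroid and 2.29 to 2.30 when hypothyroid. In mutants it was 2.26 to 2.31 when euthyroid and 2.32 to 2.35 when hypothyroid. A fit with array SD as a covariate thus also takes out part of the group differences. What share of the calls lost in that fit owes to this cannot be told. Along the first principal component, 2 arrays stood far out on either side, control euthyroid replicate 14 at 71.9 and mutant hypothyroid replicate 7 at -56.7. Some results below are also given without control euthyroid replicate 14, and a few without both arrays. Markers of hepatocytes were high on every array, with a mean of 11.65 to 11.95 over 9 genes. Those of Kupffer cells, the resident liver macrophages, had a mean over 12 genes of 5.86 to 5.98 in euthyroid controls, 5.35 to 5.53 in hypothyroid controls, 6.19 to 7.25 in euthyroid mutants and 5.37 to 6.22 in hypothyroid mutants. The RNA is of whole liver, so fewer cells of a type and less RNA per cell cannot be told apart, and the part of this Kupffer cell difference in the values below was not tested.

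The subunit genes were abundant transcripts with little spread between mice. On all 12 arrays 76 of the 81 members lay above the array's median, and 72 lay above its 75th percentile. The 5 others were Ndufa4l2, Cox4i2, Cox7b2, Cox8b and Cox8c, of which the Cox genes encode isoforms known from lung, muscle or testis. The median SD within groups was 0.160 for the members, against 0.193 for all 21789 tested clusters and 0.197 for clusters at a level like that of most members. The lowest mean level of all members on an array was that of control euthyroid replicate 14 (8.59). That array held the lowest value of 32 of the 81 members (39.5%), against 23% of all clusters. It held the highest value of 12 members (14.8%), against 19.7% of all clusters.

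**Figure D1:**
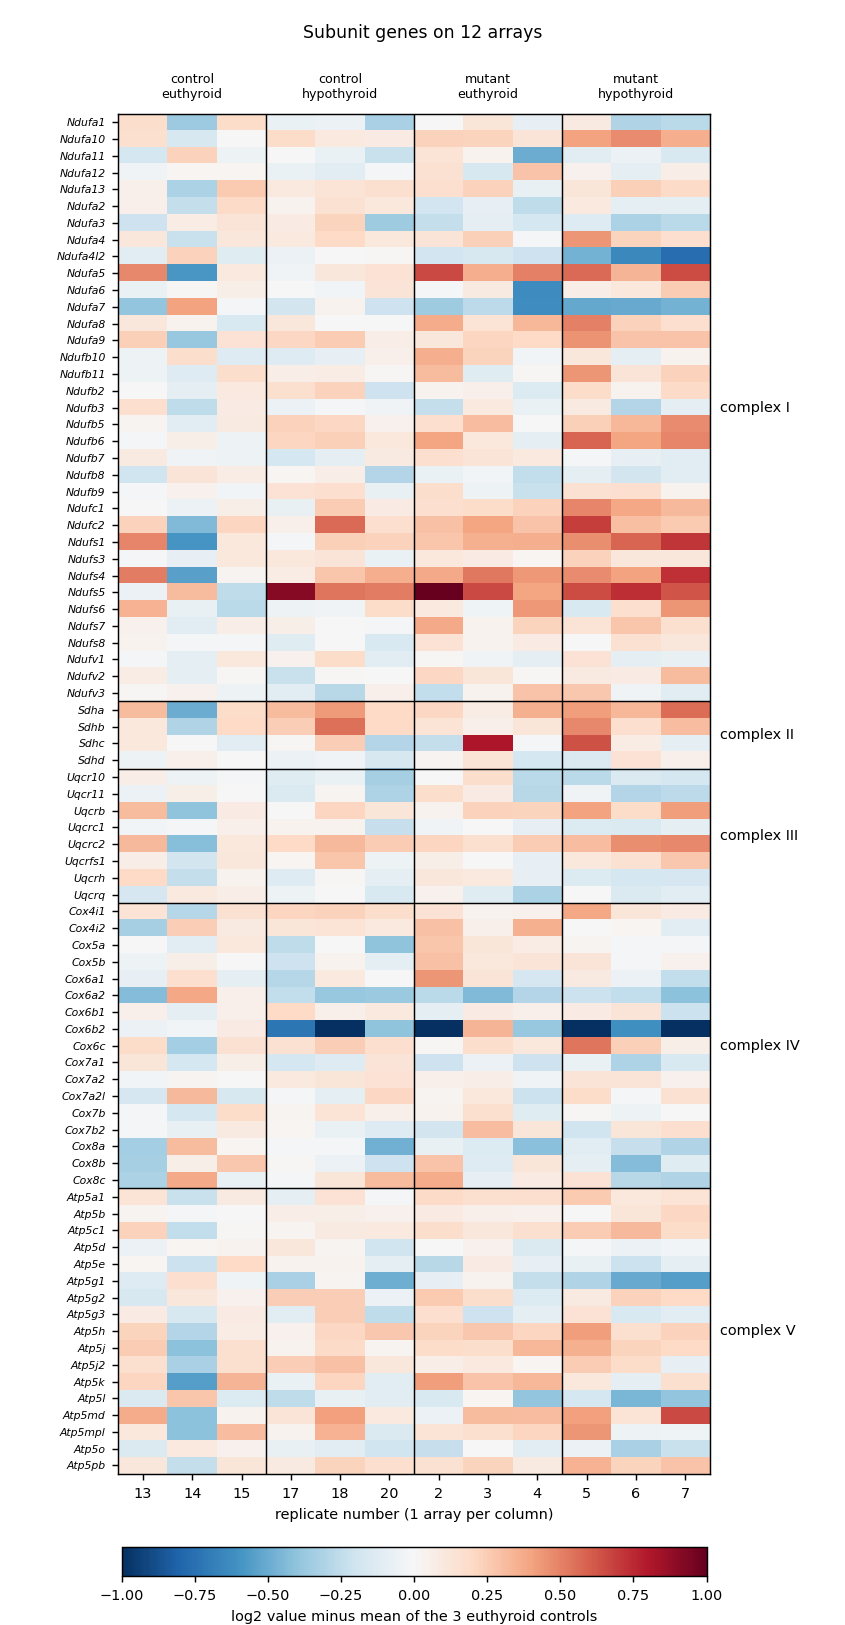
Values of the 81 subunit genes (rows, by complex) on the 12 arrays (columns, by group and replicate number), as the log2 value minus the mean of the 3 euthyroid controls, with colours saturating at 1 in either direction. Most cells are pale, control euthyroid replicate 14 is the bluest column of its group in complexes I, II and V, and Cox6b2 and Ndufs5 are the rows with the strongest colours.

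The median differences of the subunit genes were small in every comparison, and at most 1 member was called. A gene was called at an adjusted p under 0.05 in limma, with Benjamini-Hochberg adjustment over all 21789 clusters. In euthyroid mice 0 of the 81 members were called between mutant and control, where 0.129% of all clusters were called, and 4 members had an unadjusted p under 0.05 (8.13% of all clusters had one). In hypothyroid mice the count between mutant and control was again 0 of 81 (0.262% of all clusters), with 7 members at an unadjusted p under 0.05 (10.4% of all clusters).

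Hypothyroidism gave the same picture. Between hypothyroid and euthyroid controls 0 members were called (1.11% of all clusters), and between hypothyroid and euthyroid mutants 0 were called (1.11%). An unadjusted p under 0.05 was found for 3 members in each of these comparisons, against 13% and 15.8% of all clusters. The comparisons share control and mutant arrays, so they are not independent of each other.

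The averages over the other factor use all 12 arrays and have narrower errors. The mutant effect averaged over thyroid states gave 1 called member, Ndufa4l2, which was lower in mutants (1.14% of all clusters were called, and 0.234% were called lower). An unadjusted p under 0.05 was found for 11 members, against 16.7% of all clusters. All 11 carry complex I symbols, of which 9 (Ndufa5, Ndufa8, Ndufa10, Ndufb6, Ndufc1, Ndufs1, Ndufs4, Ndufs5 and Ndufs7) were higher and 2 (Ndufa7 and Ndufa4l2) lower in mutants. The hypothyroid effect averaged over genotypes gave 0 called members where 6.04% of all clusters were called, and 6 members had an unadjusted p under 0.05, against 24.7% of all clusters. The interaction, which is the mutant effect in hypothyroid mice minus that in euthyroid mice, gave 0 called members and 0% called among all clusters, with 2 members, Ndufs5 and Ndufa4l2, at an unadjusted p under 0.05 (2.75% of all clusters).

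The errors were small enough to bound most members. For the hypothyroid effect averaged over genotypes, the 95% confidence interval lay within 1.5-fold in both directions for 79 of 81 members (97.5%), against 84.1% of all clusters. For the mutant effect averaged over thyroid states it did so for 74 of 81 members, against 88.7% of all clusters. In the comparisons of 3 mice against 3 it did so for 69 of 81 members between mutant and control in euthyroid mice (73.8% of all clusters) and 71 in hypothyroid mice (69.9%). Between hypothyroid and euthyroid mice it did so for 72 members in controls (68.5%) and 70 in mutants (64.3%). The number of arrays limits this precision.

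The share of members whose groups did not overlap was set beside that of all clusters. All mutant values lay on 1 side of all control values for 10 members in euthyroid mice (10.4% of all clusters, 12.3% of members) and for 20 members in hypothyroid mice (22.5% of all clusters, 24.7% of members). Hypothyroid and euthyroid values were separate for 8 members in controls, against 16.7% of all clusters, and for 18 members in mutants, against 25.7%. Over all 6 mutant and 6 control mice, the groups were separate for Ndufa8, with higher values in mutants, and for Ndufa4l2, with lower values (1.05% of all clusters were separate). Over all 6 hypothyroid and 6 euthyroid mice they were separate for 0 members (3.75% of all clusters).

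**Figure D2:**
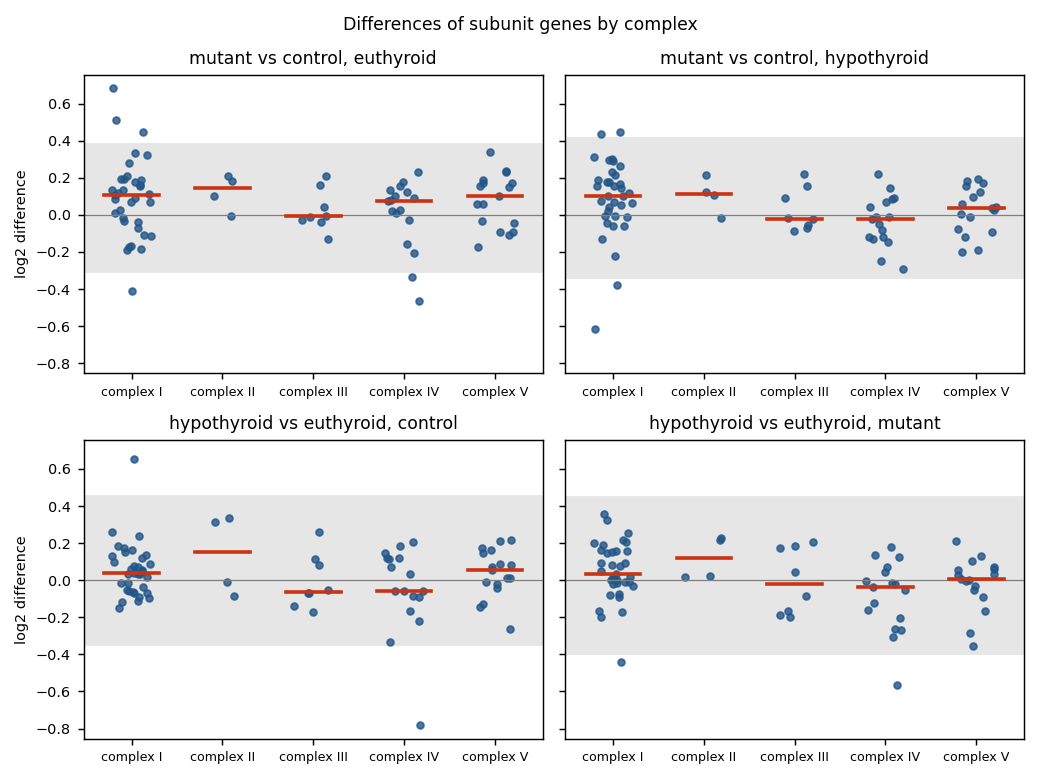
Log2 differences of the 81 subunit genes (points) by complex in the 4 comparisons of 3 mice against 3, with the median of each complex (red line) and the range between the 5th and 95th percentile of all 21789 clusters (grey). Most members lie inside the grey range, and the points farthest from 0 are those of Cox6b2, Ndufs5, Ndufa4l2 and Ndufa5.

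The small median shifts depended on the scaling of the arrays, and that of the hypothyroid average changed direction. The median mutant effect averaged over thyroid states was 0.06 for the members (-0.01 for all clusters), and 52 of 81 members were above 0, against 46.4% of all clusters. After quantile normalization between arrays the median was 0.00 (-0.01 for all clusters), with 41 members above 0, against 48.3% of all clusters. After centring each array on its median it was 0.11 (0.04 for all clusters), with 62 above 0, against 59.4%. The median hypothyroid effect averaged over genotypes was 0.01 for the members, with 43 of 81 above 0 (46.1% of all clusters). After quantile normalization it was -0.10 (-0.03 for all clusters), with 19 above 0, against 43.6% of all clusters.

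By mouse, the members' median deviation from their 12-array means was -0.02, -0.13 and 0.02 in euthyroid controls and -0.02, 0.06 and -0.08 in hypothyroid controls. In mutants it was 0.02, 0.05 and -0.04 when euthyroid and 0.07, -0.01 and 0.00 when hypothyroid. All 4 groups overlapped, and the lowest mouse was control euthyroid replicate 14. Complexes I to V were not alike in their spread. In complex V the euthyroid controls ran from -0.31 to 0.05, while in complex IV every one of the 12 mice lay between -0.08 and 0.04.

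**Figure D3:**
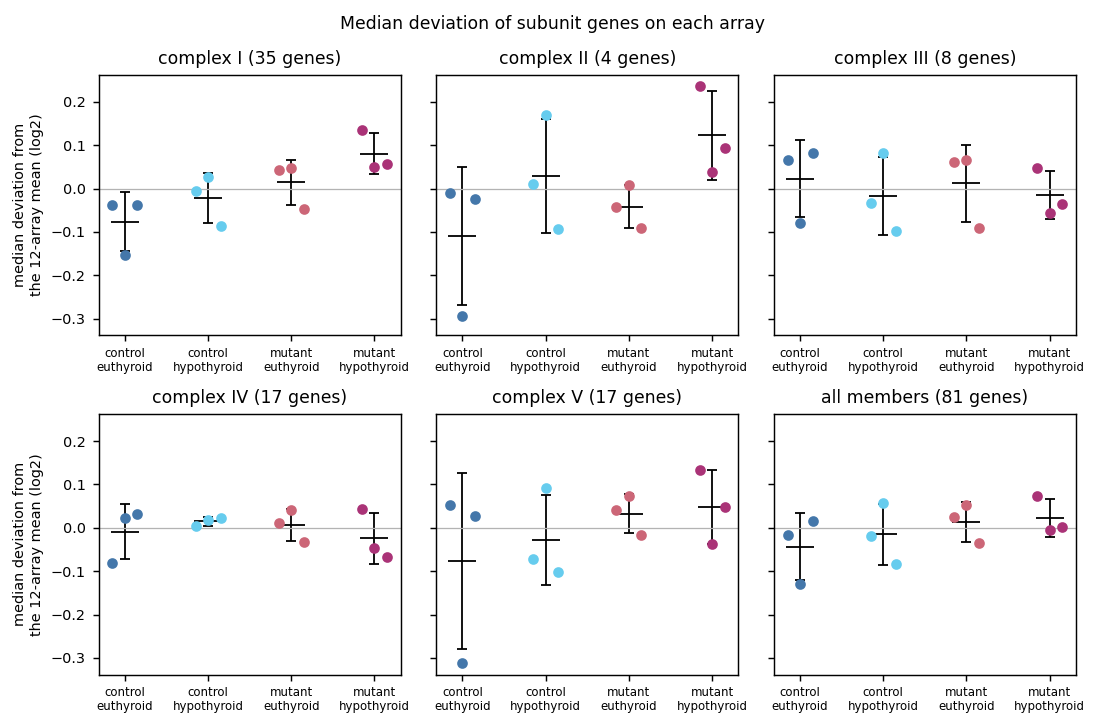
Median deviation of the members of each complex from their 12-array mean (log2), for each mouse (points) with the group mean and SD (bars, n = 3). The 4 groups overlap over all 81 members and in complexes III, IV and V, the hypothyroid mutants lie above the euthyroid controls in complexes I and II, and control euthyroid replicate 14 is the lowest point in complexes I, II and V.

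Complex I, NADH:ubiquinone oxidoreductase, carried most of the named differences. The median mutant effect over its 35 genes was 0.13, with 26 above 0 (21 after quantile normalization and 28 after median centring). The median was 0.05 after quantile normalization, 0.05 with array SD as a covariate and 0.08 without control euthyroid replicate 14. The median deviation by mouse ran from -0.15 to -0.04 in euthyroid controls, from -0.09 to 0.03 in hypothyroid controls, from -0.05 to 0.05 in euthyroid mutants and from 0.05 to 0.14 in hypothyroid mutants. The hypothyroid mutants thus lay above both control groups, while the euthyroid mutants overlapped the hypothyroid controls.

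Of the conserved core subunits, which carry the flavin and iron-sulfur centres, 6 were measured (Ndufs1, Ndufs3, Ndufs7, Ndufs8, Ndufv1 and Ndufv2), and 0 were called in the comparisons above. Their mutant effects averaged over thyroid states ran from -0.04 for Ndufv1 to 0.38 for Ndufs1, and 5 of 6 had an interval within 1.5-fold. Ndufs1, the largest iron-sulfur subunit, read 8.91, 7.83 and 8.52 in euthyroid controls and 8.40, 8.66 and 8.65 in hypothyroid controls. It read 8.70, 8.78 and 8.78 in euthyroid mutants and 8.88, 9.0 and 9.13 in hypothyroid mutants. The hypothyroid mutants lay above all other groups but for 1 euthyroid control at 8.91, and the lowest value by far was that of control euthyroid replicate 14. The mutant effect was 0.38 ± 0.144 (SE; adjusted p = 0.203) and was not called. It was 0.24 (adjusted p = 0.327) without that array.

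The 28 accessory subunits of complex I had a median mutant effect of 0.11 and a median hypothyroid effect of 0.11, and 0 were called. The sign of the hypothyroid median over all 35 complex I genes depended on the scaling. It was 0.04 as deposited, with 21 genes above 0, and 0.08 under median centring. Quantile normalization gave -0.08, with 13 genes above 0, and the array SD covariate gave -0.01. Ndufa5, an accessory subunit of the peripheral arm, had the largest mutant effect of all members. It read 8.46, 7.40 and 8.08 in euthyroid controls, 7.95, 8.10 and 8.12 in hypothyroid controls, 8.64, 8.35 and 8.49 in euthyroid mutants and 8.55, 8.32 and 8.63 in hypothyroid mutants. All mutants were at 8.32 or higher, and 1 control, replicate 13, reached into their range. The mutant effect was 0.48 ± 0.145 (1.39-fold; adjusted p = 0.132), and 0.33 (adjusted p = 0.180) without control euthyroid replicate 14.

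Ndufa7, another accessory subunit, went the other way. It read 7.08, 7.87 and 7.46 in euthyroid controls and 7.29, 7.50 and 7.26 in hypothyroid controls, against 7.11, 7.21 and 6.85 in euthyroid mutants and 6.96, 6.97 and 6.99 in hypothyroid mutants. The hypothyroid mutants were the tightest group and lay below all controls, and the euthyroid mutants overlapped the controls through replicate 13 alone. The mutant effect was -0.40 ± 0.122 (adjusted p = 0.136), and -0.30 (adjusted p = 0.227) without control euthyroid replicate 14. Ndufs4, a subunit needed for the stability of the peripheral arm, had a mutant effect of 0.37 ± 0.144 (adjusted p = 0.218), and 0.24 (adjusted p = 0.382) without control euthyroid replicate 14. The mutant effect was for Ndufc1 0.26 ± 0.085 (adjusted p = 0.161) and for Ndufa10 0.24 ± 0.0845 (adjusted p = 0.178). When control euthyroid replicate 13 was left out, 5 members were called in the mutant average, namely Ndufa5, Ndufa7, Ndufs1, Ndufs4 and Ndufa4l2, and without control euthyroid replicate 14 the count was 0.

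Ndufa8, an accessory subunit of the intermembrane space side, was the gene whose 6 mutants all lay above the 6 controls. It read 8.22, 8.14 and 7.96 in euthyroid and 8.22, 8.11 and 8.10 in hypothyroid controls, and 8.48, 8.25 and 8.44 in euthyroid and 8.61, 8.34 and 8.27 in hypothyroid mutants. The gap between the highest control and the lowest mutant was small beside the range within each group. The mutant effect was 0.27 ± 0.093 (1.21-fold; adjusted p = 0.169), and its hypothyroid effect was 0.03 ± 0.093. Across all 28 accessory genes, mutant effects ran from -0.40 (Ndufa7) to 0.48 (Ndufa5) with 21 above 0, and hypothyroid effects from -0.16 (Ndufa1) to 0.32 (Ndufs5) with 18 above 0. The interval lay within 1.5-fold for 24 of the 28 in the mutant average and 27 in the hypothyroid average.

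Ndufs5, another accessory subunit of the intermembrane space side, was lowest in the euthyroid controls. Its values were 7.50, 7.88 and 7.30 in euthyroid controls, 8.47, 8.09 and 8.07 in hypothyroid controls, 8.56, 8.22 and 7.95 in euthyroid mutants and 8.21, 8.30 and 8.19 in hypothyroid mutants. Every euthyroid control lay below every mouse of the other groups, which overlapped each other. Mutant exceeded control by 0.68 ± 0.178 in euthyroid mice (1.61-fold; adjusted p = 0.248) and by 0.02 ± 0.178 in hypothyroid mice (adjusted p = 0.972). Hypothyroid controls exceeded euthyroid controls by 0.65 ± 0.178 (adjusted p = 0.10). Both comparisons use the same 3 euthyroid controls. Without control euthyroid replicate 14 this last difference was 0.81 and was called (adjusted p = 0.0466). The interaction was -0.66 ± 0.252, with an adjusted p of 1.00 and an interval from -1.2 to -0.12, so it was not called. Another Ndufs5 cluster also carries the symbol of a different gene and was kept apart. It did not show differences of this size. Over the 6 clusters of that kind, the highest difference was 0.08 for mutant against control in euthyroid mice. For hypothyroid against euthyroid controls the highest was 0.16.

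The promoter of Ndufs5 is shown because this gene had the largest difference of complex I among the comparisons of 3 mice against 3. The window runs from 250 bases before to 50 bases after the start of the gene (RefSeq, GRCm38.p6, chr4:123718137-123718436, minus strand, printed 5′ to 3′). Capitals mark AGGTCA or its reverse complement TGACCT, the single hexamer that nuclear receptors such as the thyroid hormone receptor are known to bind.

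Ndufs5: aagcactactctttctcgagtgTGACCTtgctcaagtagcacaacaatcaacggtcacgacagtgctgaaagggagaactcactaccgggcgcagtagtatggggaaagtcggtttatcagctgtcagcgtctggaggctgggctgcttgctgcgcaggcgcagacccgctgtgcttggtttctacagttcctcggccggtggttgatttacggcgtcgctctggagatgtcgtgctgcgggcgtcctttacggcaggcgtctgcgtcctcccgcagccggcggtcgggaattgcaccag

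It holds 1 such hexamer, near the end of the window away from the gene, and no match to the NRF1 core, ETS or YY1 motifs described below. A match is a description of letters and not a site of binding.

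Ndufb6, an accessory subunit of the membrane arm, had the smallest adjusted p for the hypothyroid effect among complex I genes. It read 8.68, 8.75 and 8.64 in euthyroid and 8.91, 8.93 and 8.80 in hypothyroid controls, and 9.09, 8.79 and 8.59 in euthyroid and 9.27, 9.09 and 9.18 in hypothyroid mutants. Hypothyroid values lay above euthyroid ones in controls, and in mutants they lay, to 2 decimals, at or above the highest euthyroid value. The hypothyroid effect averaged over genotypes was 0.27 ± 0.095 (1.21-fold; adjusted p = 0.0985).

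Ndufa4l2, a paralogue of Ndufa4 known as a target of hypoxia-inducible factor, was the called member. It was a dim probe set, with a mean of 4.38 over the 12 arrays, close to the array medians. Its values were 4.48, 4.82 and 4.46 in euthyroid controls (mean 4.59 ± 0.200 SD, n = 3), 4.53, 4.59 and 4.60 in hypothyroid controls (4.57 ± 0.0389), 4.40, 4.43 and 4.38 in euthyroid mutants (4.40 ± 0.0233) and 4.11, 3.94 and 3.82 in hypothyroid mutants (3.96 ± 0.146). All 6 mutants lay below all 6 controls, and the hypothyroid mutants lay below all other mice. The mutant effect averaged over thyroid states was -0.40 ± 0.0914 (1.32-fold lower; adjusted p = 0.04996).

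That call stood at the edge of the threshold. It was kept in 1 of 18 alternative settings (without control euthyroid replicate 13, adjusted p = 0.0175) and lost in the other 17, among them the fits without any 1 of the other 11 arrays, with adjusted p up to 0.545, while the sign was negative in all of them. Within hypothyroid mice the difference was -0.61 ± 0.129 (adjusted p = 0.0720), and it was called without control euthyroid replicate 13 (adjusted p = 0.0460), without replicate 14 (adjusted p = 0.0243) and with these groups fitted alone (adjusted p = 0.0457). Within euthyroid mice it was -0.19 ± 0.129 (adjusted p = 0.721). Ndufa4 itself, which had a mean of 11.25, showed a mutant effect of 0.13 ± 0.0953 (adjusted p = 0.505).

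**Figure D4:**
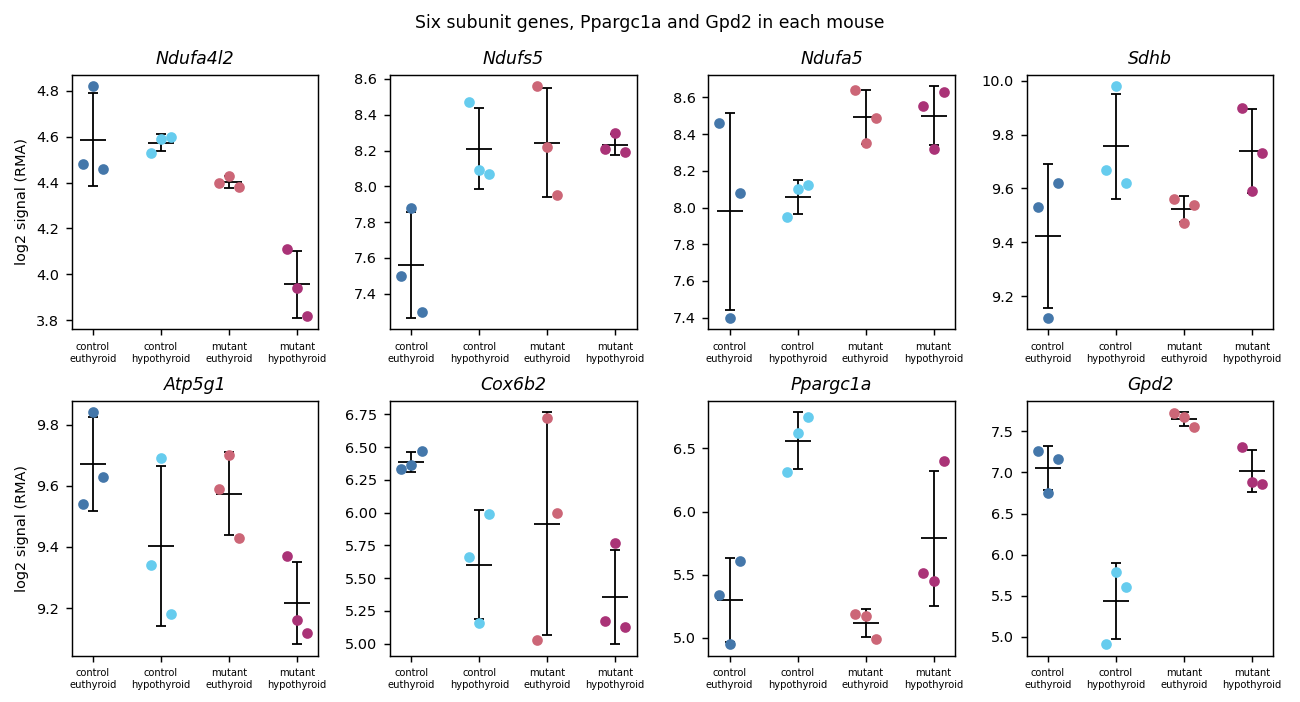
Log2 signal in each mouse (points) of 6 subunit genes and of Ppargc1a and Gpd2, with the group mean and SD (bars, n = 3), and with a separate vertical scale for each gene that does not start at 0. The euthyroid controls are the lowest group for Ndufs5, the hypothyroid mutants are the lowest group for Ndufa4l2, and Gpd2 and Ppargc1a have wider ranges than most of the subunit genes shown.

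Complex II, succinate dehydrogenase, had no called gene among its 4, and the larger hypothyroid effects were those of its catalytic pair. Sdhb, the iron-sulfur subunit, read 9.53, 9.12 and 9.62 in euthyroid and 9.67, 9.98 and 9.62 in hypothyroid controls. In mutants it read 9.56, 9.47 and 9.54 when euthyroid and 9.90, 9.59 and 9.73 when hypothyroid. In each genotype the hypothyroid values lay at or above the highest euthyroid value. The hypothyroid effect averaged over genotypes was 0.28 ± 0.108 (1.21-fold; adjusted p = 0.132), and 0.20 (adjusted p = 0.256) without control euthyroid replicate 14.

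Sdha, the flavoprotein that oxidizes succinate, had a hypothyroid effect of 0.27 ± 0.127 (adjusted p = 0.203), and 0.15 (adjusted p = 0.391) without that array, where it read 9.84 against 10.65 and 10.51 in the other euthyroid controls. The hypothyroid effects of the membrane anchors Sdhc and Sdhd were 0.00 ± 0.172 and -0.03 ± 0.0889. Sdhc had the widest values in the complex, from 9.56 in hypothyroid control replicate 20 to 10.67 in euthyroid mutant replicate 3. After quantile normalization the median hypothyroid effect of the 4 genes was -0.02, against 0.14 as deposited. The promoter of Sdhb is shown as the only one of those printed here that holds 3 kinds of motif (RefSeq, GRCm38.p6, chr4:140961021-140961320, plus strand). Capitals mark, in order, AGGTCA, the NRF1 core GCATGCGC and the ETS motif CCGGAAG.

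Sdhb: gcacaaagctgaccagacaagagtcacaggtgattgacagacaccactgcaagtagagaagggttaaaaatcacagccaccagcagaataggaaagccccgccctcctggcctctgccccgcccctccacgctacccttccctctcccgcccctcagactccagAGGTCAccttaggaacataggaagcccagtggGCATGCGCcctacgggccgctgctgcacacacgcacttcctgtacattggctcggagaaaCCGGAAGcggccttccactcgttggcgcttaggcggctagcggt

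Complex III, ubiquinol:cytochrome c oxidoreductase, was the complex with the fewest genes above 0 in the mutant average, 3 of 8 (2 after quantile normalization and 6 after median centring). Its 8 genes had 0 calls and mutant effects between -0.07 (Uqcrq) and 0.19 (Uqcrb, 0.09 without control euthyroid replicate 14), each with an interval within 1.5-fold. The Rieske iron-sulfur protein Uqcrfs1 differed by 0.04 ± 0.0923 between mutant and control and by 0.13 ± 0.0923 between hypothyroid and euthyroid mice. The hypothyroid effects of the core proteins were 0.23 ± 0.113 for Uqcrc2 (adjusted p = 0.216) and -0.07 ± 0.0824 for Uqcrc1, and their difference was not tested. Without control euthyroid replicate 14 the value for Uqcrc2 was 0.13 (adjusted p = 0.420).

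Uqcrh, the hinge protein that docks cytochrome c1, depended on the scaling. It read 10.27, 9.83 and 10.10 in euthyroid and 9.93, 10.08 and 9.97 in hypothyroid controls, and 10.18, 10.16 and 9.98 in euthyroid and 9.93, 9.89 and 9.90 in hypothyroid mutants. Its hypothyroid effect was -0.13 ± 0.092 as deposited (adjusted p = 0.378) and -0.30 after quantile normalization, where it was called (adjusted p = 0.0456). Hypothyroid mutants lay below euthyroid mutants, while the controls overlapped.

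In complex IV, cytochrome c oxidase, the median deviation varied least between mice, and 0 of its 17 genes were called. Single genes moved in opposite directions. On control euthyroid replicate 14, Cox6c was -0.34 and Cox8a 0.32 from the mean of the euthyroid controls. The median hypothyroid effect was -0.06 as deposited, with 6 genes above 0. It was -0.11 after quantile normalization (1 above 0) and 0.02 with array SD as a covariate (10 above 0). The 9 subunits other than Cox7a2l that liver is known to use, among them Cox4i1, Cox5a, Cox5b, Cox6a1 and Cox6c, had mutant effects between -0.13 (Cox8a) and 0.19 (Cox5a) and hypothyroid effects between -0.19 (Cox5a) and 0.18 (Cox6c). All 9 intervals lay within 1.5-fold in both averages. Cox5a, the subunit that binds thyroid hormone metabolites, read 9.31, 9.20 and 9.42 in euthyroid and 9.06, 9.30 and 8.91 in hypothyroid controls. In mutants it read 9.59, 9.43 and 9.38 when euthyroid and 9.34, 9.30 and 9.30 when hypothyroid. The hypothyroid mutants lay below the euthyroid mutants and the controls overlapped, and the hypothyroid effect was -0.19 ± 0.0915 (adjusted p = 0.215).

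The 7 isoforms of complex IV subunits that are known mainly from lung, muscle, heart or testis (Cox4i2, Cox6a2, Cox6b2, Cox7a1, Cox7b2, Cox8b and Cox8c) had no called gene. Cox6b2, the testis isoform of Cox6b1, had the largest hypothyroid effect of all members. Its values were 6.33, 6.36 and 6.47 in euthyroid controls, 5.66, 5.16 and 5.99 in hypothyroid controls, 5.03, 6.72 and 6.0 in euthyroid mutants and 5.17, 5.77 and 5.13 in hypothyroid mutants. Hypothyroid controls lay below euthyroid controls, while the euthyroid mutants spanned the whole range. The hypothyroid effect was -0.67 ± 0.227 (1.59-fold lower, adjusted p = 0.0895). Without mutant euthyroid replicate 2 it was -0.90 and was called (adjusted p = 0.0125). Without control euthyroid replicate 14 it was -0.68 and was not called (adjusted p = 0.135).

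Cox6a2, the heart and skeletal muscle isoform of Cox6a1, read 4.62, 5.44 and 5.11 in euthyroid controls, against 4.62 to 4.84 in the other 9 mice. The difference between hypothyroid and euthyroid controls was -0.33 (adjusted p = 0.428), and without control euthyroid replicate 13 it was called (adjusted p = 0.0440). Without control euthyroid replicate 14, which read 5.44, it was -0.14 (adjusted p = 0.865). Markers of muscle had a mean over 8 genes of 4.03 to 4.83 in euthyroid controls and 3.87 to 4.33 in the other groups, and their part in the Cox6a2 values was not tested. The liver counterparts Cox6b1 and Cox6a1 had hypothyroid effects of 0.05 ± 0.0897 and -0.13 ± 0.117.

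Complex V, the ATP synthase, had 0 called genes among 17. The 5 subunits of its catalytic F1 head (Atp5a1, Atp5b, Atp5c1, Atp5d and Atp5e) had mutant effects between -0.11 and 0.17 and hypothyroid effects between -0.02 and 0.09. Atp5b, the catalytic beta subunit, was the steadiest of them. It read 11.63, 11.58 and 11.59 in euthyroid controls, 11.66, 11.65 and 11.64 in hypothyroid controls, 11.68, 11.65 and 11.64 in euthyroid mutants and 11.60, 11.72 and 11.80 in hypothyroid mutants. Its mutant effect was 0.06 ± 0.0777 (interval -0.11 to 0.22) and its hypothyroid effect 0.05 ± 0.0777 (interval -0.11 to 0.22).

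In the peripheral stalk, which holds the head against rotation, Atp5j had the largest positive mutant effect of the complex, 0.20 ± 0.111 (adjusted p = 0.374), and 0.10 without control euthyroid replicate 14. That array was the lowest of 12 for Atp5j at 9.80, where the other mice lay between 10.24 and 10.56. Atp5k, a small membrane subunit, likewise read 7.79 there and 8.24 to 8.76 in the others. The 4 stalk genes Atp5h, Atp5j, Atp5o and Atp5pb had a median mutant effect of 0.15, with Atp5o the single one below 0 (-0.09 ± 0.0887), and their hypothyroid effects ran from -0.11 (Atp5o) to 0.15 (Atp5pb). The 5 small membrane subunits Atp5j2, Atp5k, Atp5l, Atp5md and Atp5mpl ran from -0.19 (Atp5l) to 0.19 (Atp5k) in the mutant average and from -0.16 (Atp5l) to 0.21 (Atp5md) in the hypothyroid average. Leaving control euthyroid replicate 14 out moved the median hypothyroid effect of the 17 genes from 0.01 to -0.05. In the same fit the mutant effects of Atp5h, Atp5k and Atp5l were 0.09, 0.05 and -0.12. After quantile normalization the median hypothyroid effect of the 17 genes was -0.10, with 1 gene above 0, against 10 above 0 as deposited. It was -0.06 with array SD as a covariate (2 above 0) and 0.06 after median centring (13 above 0).

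**Figure D5:**
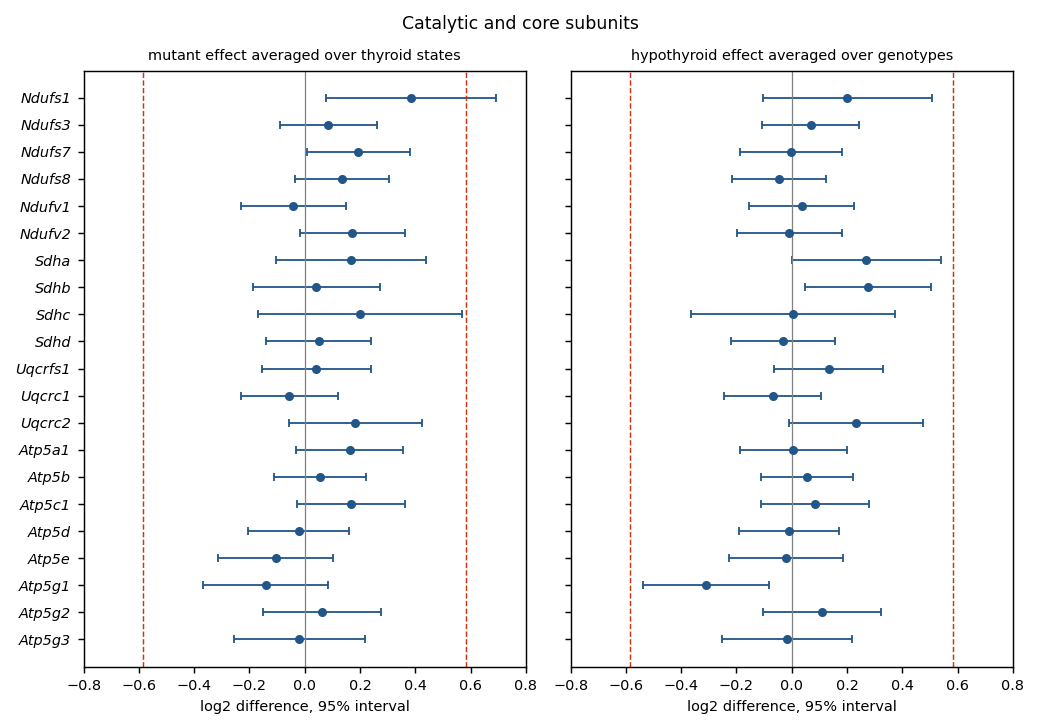
Log2 differences with 95% confidence intervals of the 21 measured catalytic and core subunits for the mutant effect averaged over thyroid states (left) and the hypothyroid effect averaged over genotypes (right), from 12 arrays, with dashed lines at 1.5-fold. The interval passes 1.5-fold for 1 gene in the mutant average, Ndufs1, and for 0 genes in the hypothyroid average, where Atp5g1 is the lowest point.

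Subunit c, which forms the rotating ring of complex V, is encoded by Atp5g1, Atp5g2 and Atp5g3, whose mature proteins are known to be identical while their promoters differ. Atp5g1 read 9.54, 9.84 and 9.63 in euthyroid and 9.34, 9.69 and 9.18 in hypothyroid controls, and 9.59, 9.70 and 9.43 in euthyroid and 9.37, 9.16 and 9.12 in hypothyroid mutants. Hypothyroid mutants lay below euthyroid mutants, and the controls overlapped through 1 hypothyroid mouse at 9.69. The hypothyroid effect was -0.31 ± 0.106 (1.24-fold lower; adjusted p = 0.0937), and -0.45 (adjusted p = 0.0403) after quantile normalization, where it was called. It was also called without control euthyroid replicate 13 (adjusted p = 0.0480). Without control euthyroid replicate 14 it was -0.27 and was not called (adjusted p = 0.174). Its other cluster gave -0.29.

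Atp5g2 had a hypothyroid effect of 0.11 ± 0.1 and Atp5g3 one of -0.02 ± 0.111, neither of them called (adjusted p = 0.522 and 0.940). The other clusters of Atp5g2 gave 0.10 and 0.04. The differences between these 3 genes were not tested. Their promoters are shown because they drive genes for 1 and the same protein (RefSeq, GRCm38.p6, all on the minus strand, at chr11:96075582-96075881, chr15:102670998-102671297 and chr2:73911277-73911576). Capitals mark in Atp5g2 the NRF1 core GCATGCGC on both strands, as 2 overlapping matches, and the hexamer as TGACCT in Atp5g3, while Atp5g1 has no match to the motifs searched.

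Atp5g1: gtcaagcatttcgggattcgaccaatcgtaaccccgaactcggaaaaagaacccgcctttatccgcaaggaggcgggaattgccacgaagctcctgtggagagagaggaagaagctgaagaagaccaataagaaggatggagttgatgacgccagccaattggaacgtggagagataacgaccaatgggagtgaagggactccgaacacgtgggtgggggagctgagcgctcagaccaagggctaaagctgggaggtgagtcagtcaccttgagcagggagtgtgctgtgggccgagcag

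Atp5g2: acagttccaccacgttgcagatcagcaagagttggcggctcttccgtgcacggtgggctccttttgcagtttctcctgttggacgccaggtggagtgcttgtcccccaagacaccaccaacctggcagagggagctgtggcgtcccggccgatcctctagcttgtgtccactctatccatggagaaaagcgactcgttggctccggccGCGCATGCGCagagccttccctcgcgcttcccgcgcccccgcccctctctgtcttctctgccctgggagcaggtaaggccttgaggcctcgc

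Atp5g3: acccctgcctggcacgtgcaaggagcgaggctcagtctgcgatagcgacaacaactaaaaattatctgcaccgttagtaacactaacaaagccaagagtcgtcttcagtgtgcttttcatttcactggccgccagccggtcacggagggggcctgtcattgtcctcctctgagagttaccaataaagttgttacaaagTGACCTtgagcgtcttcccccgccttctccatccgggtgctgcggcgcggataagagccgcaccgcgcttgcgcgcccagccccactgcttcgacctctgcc

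Motifs of factors known to drive respiratory genes were counted on both strands in these 300-base windows, which were found for 66 of the 81 members and for 27025 genes in all. The core of the motif of NRF1 (nuclear respiratory factor 1), GCATGCGC, was in 10 members (15.2%, against 3.05% of all windows), among them Atp5g2, Sdhb, Cox6a1, Ndufa11 and Uqcrc1. The ETS motif CCGGAAG, of the family of GABPA, was in 17 (25.8%, against 9.93%). The YY1 motif AAGATGGC was in 10 (15.2%, against 3.19%), of which 7 belonged to complex I and 3 to complex V.

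An exact copy of the thyroid hormone receptor pattern, AGGTCA repeated in the same direction with 4 bases between, was in 0 of 66 members. It was in 4 of all 27025 windows (0.0148%), too few for a count of 0 to show that such sites are absent. The single hexamer AGGTCA was in 15 members (22.7%, against 18.1%). No test was made of these shares. The median mutant effect of members with and without each motif was 0.0058 and 0.08 for the NRF1 core, 0.06 and 0.06 for ETS, 0.16 and 0.05 for YY1, and 0.05 and 0.06 for the hexamer. The corresponding median hypothyroid effects were -0.06 and 0.01 for the NRF1 core, -0.03 and 0.02 for ETS, 0.10 and -0.01 for YY1, and -0.03 and 0.04 for the hexamer. In each average the median of members with the motif was higher for YY1 and lower for the NRF1 core, ETS and the hexamer. For ETS in the mutant average the medians were 0.0613 and 0.064. Members with the YY1 motif lay in complexes I and V alone, and these differences were not tested.

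Of the members, 16 had several clusters, 40 in all, and for 11 of them the clusters lay within 0.1 of each other in both averages. The widest spread was that of Cox7a2l, whose mutant effect was 0.02 in its main cluster and 0.33 in the other. Uqcr11 had -0.03 and -0.20. Clusters that pair a member's symbol with another gene's symbol numbered 6, for Cox7c, Ndufb4 and Ndufs5, and 0 of them were called, with differences between -0.29 and 0.38.

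Genes that work with the complexes were read from lists of other electron transport proteins, regulators, assembly factors and mitochondrial pathways, beside 1.14% of all clusters called in the mutant average and 6.04% in the hypothyroid average. Cytochrome c, Cycs, differed by 0.18 ± 0.101 in the mutant average and by -0.20 ± 0.101 in the hypothyroid average, and Cyc1, the cytochrome c1 of complex III, by -0.04 ± 0.0788 and -0.06 ± 0.0788, none of them called. Gpd2, the mitochondrial glycerol phosphate dehydrogenase that feeds electrons to ubiquinone and a classic thyroid hormone target, read 7.26, 6.75 and 7.16 in euthyroid controls, 4.91, 5.79 and 5.61 in hypothyroid controls, 7.72, 7.67 and 7.56 in euthyroid mutants and 7.31, 6.88 and 6.86 in hypothyroid mutants. Hypothyroid controls lay far below all other mice. It fell by 1.62 on the log2 scale in hypothyroid controls (adjusted p = 0.000755), and in hypothyroid mice mutants exceeded controls by 1.58 (adjusted p = 0.00432, and 0.109 with array SD as a covariate, where the call was lost). Coq7, an enzyme of ubiquinone synthesis, was higher in hypothyroid mice by 0.76 ± 0.126 (adjusted p = 0.00264), a call lost with array SD as a covariate (adjusted p = 0.223).

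Among 20 regulators of mitochondrial genes, the coactivator Ppargc1a rose under hypothyroidism in controls. It read 5.34, 4.95 and 5.61 in euthyroid and 6.31, 6.62 and 6.75 in hypothyroid controls, and 5.19, 5.17 and 4.99 in euthyroid and 5.51, 5.45 and 6.4 in hypothyroid mutants. Hypothyroid values lay above euthyroid values in each genotype. The hypothyroid effect was 1.26 ± 0.228 in controls (adjusted p = 0.0122) and 0.97 ± 0.161 averaged over genotypes (adjusted p = 0.00261). With array SD as a covariate the average was 0.62 and was no longer called (adjusted p = 0.341). The call in controls was lost with array SD as a covariate, with every cluster tested, and without control hypothyroid replicate 18 or 20 (adjusted p up to 0.132).

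The other called regulators in the averages were the deacetylase Sirt1 (hypothyroid effect 0.40), the deacetylase Sirt3 (mutant effect -0.44) and the nuclear receptor Ppard (mutant effect 0.76, hypothyroid effect -0.62). The calls of Sirt1 and Sirt3 were kept in 6 of 17 alternatives each and lost without any of several single arrays, while those of Ppard were kept in 15 and 13. Tfam, the mitochondrial transcription factor, had a mutant effect of 0.49 ± 0.127 (adjusted p = 0.0786) and a hypothyroid effect of 0.44 ± 0.127 (adjusted p = 0.0525). Ppargc1b (-0.28), Esrra (-0.25), Nrf1 (-0.09) and Gabpa (0.18) were not called for the mutant effect. Their hypothyroid effects were 0.14, -0.14, -0.03 and 0.21, and these too were not called.

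Few assembly factors and ribosomal proteins were called in either average, and their shares were not tested against those of all clusters. With 1.14% of all clusters called in the mutant average, a count of 0 in lists of 34 and 77 genes carries little information. In the hypothyroid average 6.04% of all clusters were called. Of 34 assembly factors of the complexes, 0 were called in the mutant average and 1, Cox19, was higher in the hypothyroid average (0.36 ± 0.0885, adjusted p = 0.0296). The Cox19 call was kept in 6 of 17 alternatives and lost after quantile normalization. The smallest p in the mutant average were those of Ndufaf4 (0.38 ± 0.124, adjusted p = 0.154) and Acad9 (0.38 ± 0.124, adjusted p = 0.157), which help to assemble complex I. Of 77 mitochondrial ribosomal protein genes, 0 were called in the mutant average (the smallest adjusted p was 0.0796, for Mrps15 at 0.51 ± 0.131), and in the hypothyroid average 2 were higher (Mrpl23 and Mrpl50, kept in 16 and 15 of 17 alternatives) and 2 lower (Mrps2 and Mrpl55, kept in 4 and 3). Of 17 genes of the TCA cycle and pyruvate dehydrogenase, 4 were higher in the mutant average (Cs 0.47, Pdhb 0.53, Dlat 0.65 and Idh3a 0.67, with 1 called without both outlying arrays). In the hypothyroid average 3 were higher (Suclg2, Idh2 and Dlat) and 1 was lower, Idh3a by -0.94. Under hypothyroidism the call of Idh3a was kept in 17 of 17 alternatives, that of Dlat in 16, and those of Suclg2 and Idh2 in 12 each. After quantile normalization 1 gene of this list was called higher in the hypothyroid average. With array SD as a covariate 0 were called in the mutant average and 0 were called higher in the hypothyroid average.

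The medians of these lists in the mutant average were 0.19 for the assembly factors, 0.14 for the ribosomal proteins and 0.22 for the TCA cycle genes, beside 0.06 for the 81 subunit genes and -0.01 for all clusters. Without control euthyroid replicate 14 they were 0.11, 0.08 and 0.15, and with array SD as a covariate 0.01, 0.04 and 0.11. These list medians thus depended on that array and on the covariate. In the same fits the medians of the subunit genes by complex ran from -0.03 to 0.08 and from -0.05 to 0.05. Of 15 genes of mitochondrial fatty acid oxidation, 0 were called in the mutant average, and Acadm and Echs1 were higher in the hypothyroid average (kept in 16 and 6 of 17 alternatives). The mitochondrially encoded subunits were represented by COX2 and ND3, which differed by 0.05 ± 0.0789 and 0.05 ± 0.0788 in the mutant average and by -0.06 ± 0.0789 and -0.06 ± 0.0788 in the hypothyroid average.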

How the data were processed

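Liver RNA (200 ng per array) was hybridised to Affymetrix mouse Gene Level 1.0 ST arrays, per the labels' protocols. The authors deposited log2 values, and the submitters' processing notes name RMA. The sources used here do not give its version, its options or scan dates, and no batch was tested. From them, limma 3.58.1 in R 4.3.3 fitted 4 group means to 12 arrays (prior degrees of freedom 6.83, residual 8), over the 21789 clusters with 1 gene symbol, with Benjamini-Hochberg adjustment within each comparison. Standard errors (SE) and 95% intervals are those of the fit. The fit was tested on simulated data. Promoter windows are RefSeq's, of GRCm38.p6, matched by gene ID.

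The members, gene lists and tests were chosen with earlier results of these data known. Named were called members, the 4 members with the smallest p per comparison, the members with the largest averages per complex, the catalytic and tissue isoform lists, fixed chain proteins and regulators, and called genes of the lists described. Other genes named as examples (Ndufa8, Uqcrh, Cox5a, Cox6a2, Atp5k, Ndufa4, Sdhc) were chosen after their values were seen. Alternatives were quantile normalization, median centring, a filter on level, every cluster, compared groups only, array SD as a covariate, a trended robust prior, every cluster of a gene, each array left out, and, added after seeing the data, both outlying arrays left out.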

Additional observations from a re-analysis of the deposited data

How the results depend on the processing

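The count of called members in the mutant average was 1, and it was 0 after quantile normalization, median centring, restriction to clusters above the median level (which leaves Ndufa4l2 untested), testing every cluster, a covariate for array SD, a trended and robust prior, and without control euthyroid replicate 14 and mutant hypothyroid replicate 7. Quantile normalization called 2 members in the hypothyroid average. With the compared groups alone, 1 member was called for mutant against control in hypothyroid mice. Beyond the untested gene, the causes were not tested.

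Median differences of the members moved by more than the spread between mice as follows. After quantile normalization they were -0.026 for mutant against control in hypothyroid mice, -0.075 for hypothyroid against euthyroid controls, -0.11 for hypothyroid against euthyroid mutants and -0.10 for the hypothyroid average. Median centring gave 0.12 for mutant against control in hypothyroid mice, where the median over all clusters was 0.045. The array SD covariate gave -0.047 for hypothyroid against euthyroid mutants. Without both outlying arrays the median was 0.0060 for mutant against control in euthyroid mice and 0.072 for the interaction.

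Leaving out each array in turn gave counts of called members of 0 to 0 and medians of 0.0060 to 0.11 for mutant against control in euthyroid mice, and 0 to 1 and 0.02 to 0.07 in hypothyroid mice. For hypothyroid against euthyroid mice these were 0 to 1 and -0.02 to 0.06 in controls, and 0 to 1 and -0.01 to 0.06 in mutants. The mutant average gave 0 to 5 and 0.03 to 0.07, the hypothyroid average 0 to 1 and 0.00 to 0.04, and the interaction 0 to 0 and -0.046 to 0.053.

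No paired analysis was possible because the groups share no replicate numbers. With 3 arrays a group, small differences lie within the error, and the signal of Ndufa4l2, Cox4i2, Cox7b2, Cox8b and Cox8c did not exceed the array median on every array.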
